A study of Mus musculus with 8 samples.

Results

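Carbonic anhydrases were followed in cultured mouse muscle cells as 9 named genes, Car2, Car3, Car4, Car5b, Car8, Car9, Car12, Car13 and Car14, out of 53647 genes in the deposited count tables. The 9 were taken by gene symbol, and Car3 was singled out because its transcript was further below control with one cytokine, LIF, than with another, OSM. Car3 was thus chosen by its counts in the control, LIF and OSM libraries. Its differences among those 3 groups are given as a description, without a test.

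Wild-type primary myoblasts, muscle precursor cells taken from the limbs of newborn pups, were differentiated in culture into myotubes, the multinucleated fibres they form by fusing. The myotubes were left as controls or received, at 250 ng/ml for 48 h, 1 of 3 recombinant cytokines: LIF (leukaemia inhibitory factor), IL6 (interleukin 6) or OSM (oncostatin M), and all cells were harvested 72 h after differentiation. Each of the 4 groups, control, IL6, LIF and OSM, holds 2 libraries. All groups share the wild-type genotype and carry no transgene by their labels. The labels do not say whether the 2 libraries of a group come from separate animals or cultures, so p-values measure only the spread between these libraries, which may be technical. In RNA from whole cultures, fewer cells of a type and less RNA per cell cannot be told apart.

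Carbonic anhydrases are zinc enzymes that interconvert carbon dioxide and water with bicarbonate and a proton. Family members differ in where they sit: some are in the cytosol, some in mitochondria, and others on the cell surface, where they act beside bicarbonate and lactate transporters. Car3 is the cytosolic form best known from skeletal muscle, where it is abundant in slow fibres, and from fat and liver. OSM, LIF and IL6 all signal through the receptor subunit gp130, and from there to transcription factors of the STAT family.

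Libraries held 29482077 to 30025471 counts assigned to genes, so depth was nearly equal. The myotube label was checked against 10 markers: all were present, and their summed level was 25347 to 26592 CPM (counts relative to library size, scaled between libraries) in controls, 21723 to 24706 with IL6, 22738 to 24339 with LIF and 22327 to 22482 with OSM. Red blood cells, which are rich in carbonic anhydrases, left almost no trace, with 5 of 6 markers at 0 in every library. A gene at 0 in a library could still hold up to 3 counts by counting error alone, a level of about 0.102 CPM.

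Of the 9 genes, 7 had enough counts to be tested, among 15603 genes tested in all. With OSM, 4 of the 7 differed from control at an adjusted p under 0.05, 2 of them higher (Car12, Car5b) and 2 lower (Car8, Car3), while 21.4% of all tested genes did, 10.8% higher and 10.6% lower. With LIF, 3 of the 7 differed, Car12 higher and Car8 and Car3 lower, against 7.66% of all tested genes, 4.2% higher and 3.46% lower. Car3 is in both counts because of how it was chosen, and nothing is read from its place there. With IL6, 0 of the 7 and 0% of all tested genes passed in edgeR's quasi-likelihood test, although 795 genes had an unadjusted p under 0.05 and DESeq2 called 17. The median log2 change of the 7 genes was 0.13 with OSM, 0.10 with LIF and 0.06 with IL6, beside -0.00, -0.01 and 0.00 over all tested genes. These comparisons share the same control libraries.

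**Figure D1:**
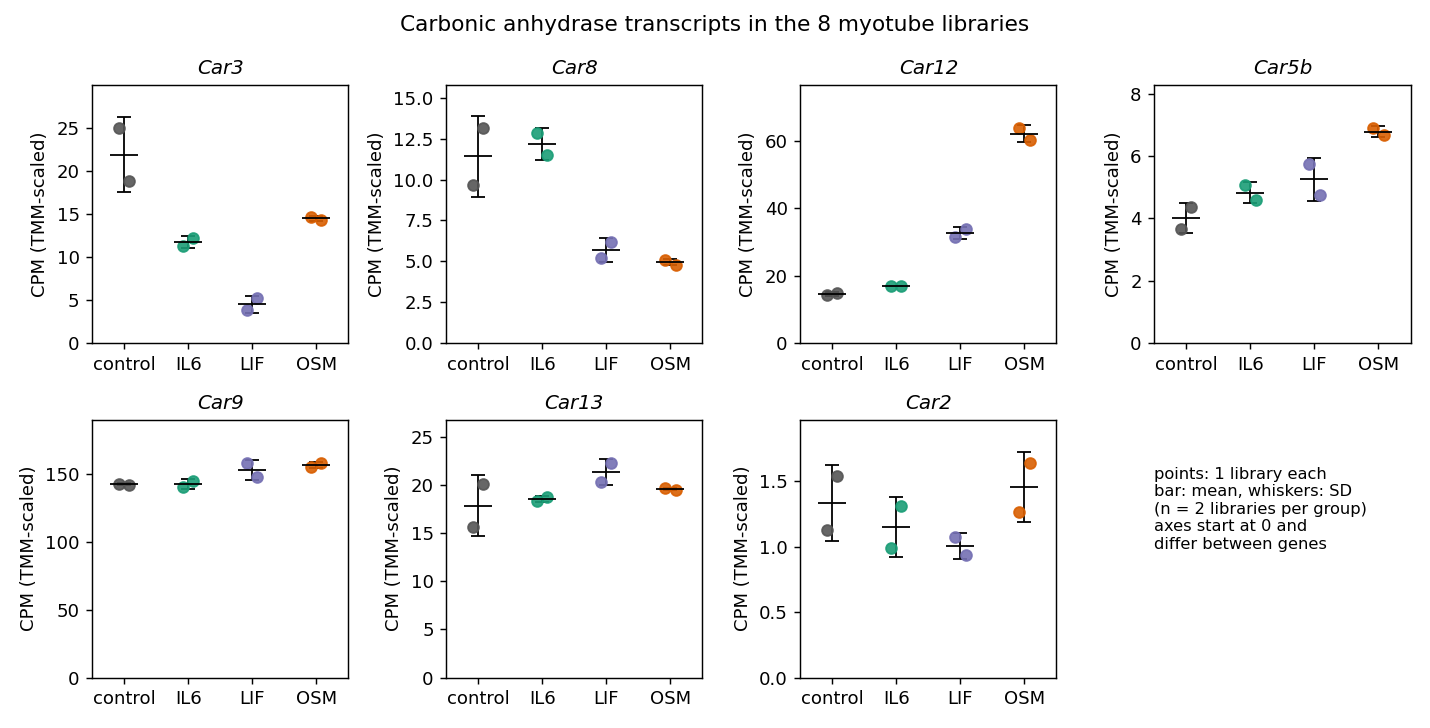
Level of each of the 7 tested carbonic anhydrase genes (CPM, vertical axis from 0, scale differing between genes) in the 8 libraries by group; points are libraries, bars the mean and whiskers the SD of 2 libraries. Car3 is lowest in the LIF libraries, Car12 is highest with OSM, and Car8 is low with both LIF and OSM.

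Car3 (ENSMUSG00000027559) is a cytosolic enzyme with weak carbon dioxide hydratase activity compared with its relatives. Its level was 25.0 and 18.8 CPM in the control libraries, 11.2 and 12.2 with IL6, 3.80 and 5.19 with LIF, and 14.7 and 14.3 with OSM. The groups followed the order control, OSM, IL6 and LIF, with no overlap between any of them. The control libraries held 728 and 560 Car3 counts and the LIF libraries 113 and 155. These pairs had the widest spread, with an SD of log2 CPM of 0.29 in controls and 0.31 with LIF, against 0.08 with IL6 and 0.03 with OSM.

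The LIF mean, 4.49 ± 0.98 CPM (SD, n = 2), was 20.5% of the control mean of 21.9 ± 4.36, whereas the OSM mean of 14.5 ± 0.29 was 66.1% of it. On the log2 scale Car3 was lower than control by a fitted -2.28 (SE 0.16) with LIF and -0.60 (SE 0.14) with OSM, and OSM exceeded LIF by 1.68 (SE 0.17). Among all tested genes this ranks as the 9th largest fitted decrease with LIF, but only as number 1192 with OSM. The OSM value leaned on 1 library: without control replicate 1 it was -0.38.

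IL6 was not among the groups that chose Car3, but its comparison uses the same control libraries. The IL6 mean was 11.7 ± 0.68 CPM, or 53.4% of control, a log2 difference of -0.90 (SE 0.15, 95% interval -1.22 to -0.59). Both IL6 libraries lay below both controls. Car3 did not pass in edgeR (unadjusted p 3.496e-05, adjusted p 0.136 over all genes), and because the controls helped to choose it, neither p is independent evidence. The side of the threshold depended on the analysis: the adjusted p over all alternatives ran from 4.115e-11 to 0.9997, and it was under 0.05 in DESeq2 (1.494e-04), without the filter on low counts, with a replicate block (0.0358), without control replicate 2 and without IL6 replicate 2. OSM exceeded IL6 by 0.31 (95% interval -0.02 to 0.63), an interval that includes 0. The LIF mean was 38.4% of the IL6 mean, a log2 difference of -1.38 (SE 0.17). Both comparisons with IL6 are given without a test, because the OSM and LIF libraries were used to choose Car3.

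The summed myotube markers were, like Car3, highest in the control libraries. Of the 10, 1 rose and 3 fell with OSM, and 1 rose and 3 fell with LIF. Over all tested genes 21.4% and 7.66% were called. Myog, a regulator of differentiation, fell with OSM (log2 -0.53) and LIF (-0.43), whereas Des rose with OSM (0.30) and LIF (0.55). The part of the myotube markers in the Car3 level was not tested.

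Car3 is also abundant in adipocytes, so markers of that cell type were read beside it. Their summed level was 5.32 to 6.44 CPM in controls, 6.05 to 7.62 with IL6, 7.23 to 7.499 with LIF and 9.56 to 11.2 with OSM. The IL6 range overlapped those of control and LIF. The part of such cells in the Car3 level was not tested. Retn and Cfd, both secreted by fat cells, were at 0 in all 8 libraries, and Plin1, Cidec and Lep stayed under 0.1 CPM. Most of the sum came from the lipase gene Lipe, which is not restricted to fat and rose with OSM (log2 0.75, adjusted p 0.0066). Fabp4, the other marker with enough counts to test, also rose with OSM, from a mean of 0.424 to 1.37 CPM (log2 1.68, adjusted p 0.0104), and neither passed with LIF or IL6.

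Car13 (ENSMUSG00000027555) and Car2 (ENSMUSG00000027562) are the other active cytosolic forms among the 9 genes. Both lie with Car3 in a row of carbonic anhydrase genes on chromosome 3, in the order Car13, Car1, Car3 and Car2 (RefSeq, GRCm38.p6). Car13 measured 15.6 and 20.1 CPM in controls, 18.3 and 18.8 with IL6, 20.3 and 22.3 with LIF, and 19.6 and 19.5 with OSM. No change in Car13 passed the test, with log2 differences from control of 0.06 (IL6), 0.26 (LIF, 95% interval 0.01 to 0.50, adjusted p 0.216) and 0.13 (OSM). Without control replicate 2 the LIF difference was called (0.45, adjusted p 0.0307). Car2, a highly active enzyme best known from red cells, kidney and bone, was low at 0.937 to 1.64 CPM, from 28 to 49 counts a library. Its log2 difference from control was 0.12 (95% interval -0.50 to 0.74) with OSM and -0.41 (95% interval -1.06 to 0.24) with LIF, wide intervals that leave its change poorly determined. Neither gene of that row tested beside Car3 gave a call in these comparisons with control, and Car1 held 0 to 6 counts a library.

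Car8 (ENSMUSG00000041261) belongs to the family by sequence but lacks enzyme activity, and its product binds the inositol trisphosphate receptor that releases calcium from the endoplasmic reticulum. Car8 stood at 9.67 and 13.2 CPM in controls and 12.9 and 11.5 with IL6. It was 5.18 and 6.19 CPM with LIF and 5.06 and 4.80 with OSM. Both cytokine groups lay wholly below control and IL6. Car8 fell with LIF (log2 -1.01, SE 0.16, adjusted p 0.00201) and with OSM (log2 -1.21, SE 0.16, adjusted p 1.338e-04), to 49.8% and 43.2% of control. OSM and LIF differed by -0.21 (95% interval -0.58 to 0.17, adjusted p 0.578), and IL6 from control by 0.09 (adjusted p 0.969). Against IL6, Car8 was lower with OSM (-1.30, adjusted p 8.555e-05) and with LIF (-1.10, adjusted p 0.00255), but the second was lost without LIF replicate 1 (adjusted p 0.0687). None of its 3 receptor genes, Itpr1, Itpr2 and Itpr3, passed the test with any cytokine.

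Car5b (ENSMUSG00000031373) supplies bicarbonate inside mitochondria. It measured 3.67 and 4.36 CPM in controls, 5.06 and 4.58 with IL6, 5.75 and 4.75 with LIF, and 6.91 and 6.67 with OSM. The OSM libraries were the highest, and no OSM library overlapped a control. Car5b rose with OSM by 0.76 on the log2 scale (SE 0.16, adjusted p 0.00423), a 1.69-fold level. The LIF difference of 0.39 (95% interval 0.03 to 0.74, adjusted p 0.1995) and the IL6 difference of 0.26 (adjusted p 0.943) did not pass, and OSM was not separated from LIF (0.37, adjusted p 0.189). About 5.52% of its 50-base stretches occur in other transcripts, so a small part of its reads may be uncertain.

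The surface enzymes Car12 and Car9 span the plasma membrane with the active site outside the cell. Car12 (ENSMUSG00000032373) was higher with LIF and higher still with OSM. It measured 14.2 and 15.0 CPM in controls, 17.0 and 16.9 with IL6, 31.5 and 33.9 with LIF, and 63.9 and 60.3 with OSM. No group overlapped another, and the order was control, IL6, LIF and OSM. Car12 rose 4.25-fold with OSM (log2 2.09, SE 0.08, adjusted p 4.431e-09) and 2.24-fold with LIF (log2 1.16, SE 0.08, adjusted p 2.976e-06). The IL6 value was 1.16-fold that of control (log2 0.22, 95% interval 0.03 to 0.40, adjusted p 0.943). OSM exceeded LIF 1.90-fold (log2 0.93, SE 0.07, adjusted p 8.336e-06), and LIF exceeded IL6 1.93-fold (log2 0.95, SE 0.08, adjusted p 3.01e-05).

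Car9 (ENSMUSG00000028463) is a classic target of the hypoxia-inducible factor. It measured 143 and 142 CPM in controls, 140 and 145 with IL6, 158 and 148 with LIF, and 155 and 158 with OSM. Log2 differences from control were 0.00 (IL6), 0.10 (LIF, adjusted p 0.369) and 0.14 (OSM, 95% interval 0.01 to 0.27, adjusted p 0.117), and none passed. About 9.29% of its exon bases overlap another gene, Gm12454, on the opposite strand.

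The other surface forms, Car4, which is tethered to the membrane of capillaries and muscle, and Car14, which spans it, were at or near 0. Car4 had 0 or 1 count a library, and Car14 had 0 to 3. Neither passed the filter on low counts, so no fold change is given. Of 7 markers of the endothelium, which carries Car4, Emcn was at 0 in all 8 libraries and Tie1 held at most 1 count, while Vwf held 109 to 136 counts a library, Cdh5 14 to 35 and Pecam1 5 to 17.

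The promoters of Car12 and Car9 are shown because one gene moved with LIF and OSM and the other did not, in the test, although both encode surface enzymes. RefSeq promoters of GRCm38.p6 were matched by symbol for 5 of the 9 genes (Car4, Car5b, Car9, Car12 and Car14). Each line gives the 250 bases before the start, 5' to 3' on the gene's plus strand, with capitals for matches, on either strand, of 3 motifs: TTCNNNGAA (bound by STAT factors), CANNTG (the E-box of muscle regulators) and ACGTG (the core of the hypoxia response).
Car12: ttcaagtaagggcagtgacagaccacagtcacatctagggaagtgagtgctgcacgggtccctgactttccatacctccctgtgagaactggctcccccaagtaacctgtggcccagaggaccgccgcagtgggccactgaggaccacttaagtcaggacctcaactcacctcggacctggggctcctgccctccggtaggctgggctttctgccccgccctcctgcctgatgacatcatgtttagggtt
Car9: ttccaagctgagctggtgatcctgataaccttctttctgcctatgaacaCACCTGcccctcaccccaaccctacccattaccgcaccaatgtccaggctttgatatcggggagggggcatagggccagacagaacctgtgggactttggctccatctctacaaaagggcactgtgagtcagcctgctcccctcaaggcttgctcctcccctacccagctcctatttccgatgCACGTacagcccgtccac
The Car12 stretch holds no match of the 3 motifs. The Car9 stretch holds 1 E-box match and 1 hypoxia core, whose first base lies 18 bases before the start. Among 32851 promoters in the table, 7.02% hold the STAT letters, 66.2% an E-box and 16.6% the hypoxia core. A match is a description of letters and not a site, and no match says only that these letters are not in this window.

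**Figure D2:**
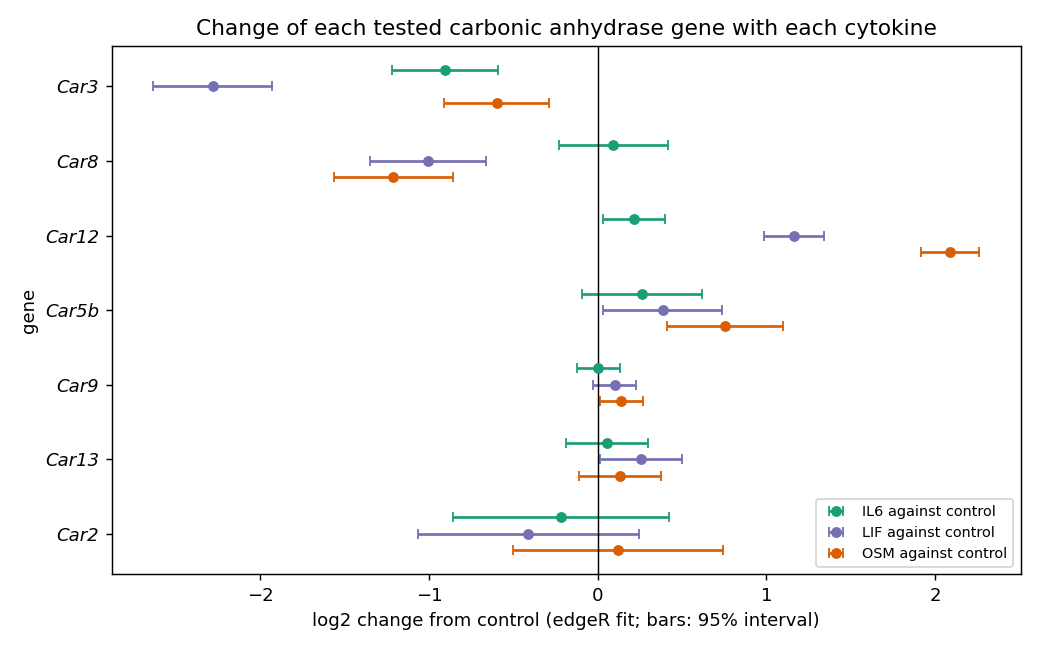
Fitted log2 change from control (horizontal axis) of each tested gene with IL6, LIF and OSM; bars are 95% intervals from the edgeR fit. Car12 lies to the right for OSM and LIF, Car8 to the left for both, and Car3 is furthest left with LIF at -2.28.

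Groups that do not overlap were frequent. Both libraries of one group lay beyond both of the other for 5 of the 7 with OSM, beside 60.9% of all tested genes, for 7 with LIF, beside 52%, and for 3 with IL6, beside 28.2%. Car3 is in all 3 counts, through the control, LIF and OSM libraries that chose it, and nothing is read from its place there. In the direct comparison of OSM with LIF, 2 of the 7, Car12 and Car3, were called, both higher with OSM, against 8.05% of all tested genes (4.01% higher, 4.04% lower), and 6 did not overlap, against 56.6%. Car3 was chosen on this comparison, so only the Car12 value is a test. OSM against IL6 called 3 of 7 (Car12 and Car5b higher, Car8 lower), against 15.5% of all tested genes (8.02% higher, 7.52% lower), and 6 did not overlap, against 54.3%. Car3 is among these 6, and the OSM libraries helped to choose it. LIF against IL6 called 3 (Car12 higher, Car8 and Car3 lower), against 2.78% (1.76% higher, 1.02% lower), and 5 did not overlap, against 43.5%; Car3 is again in these counts through the LIF libraries that chose it. The Car5b call against IL6 had an adjusted p of 0.0488 and was lost in 8 of 14 alternatives, with an adjusted p up to 0.222.

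Levels of different genes were compared per kb of exon length. Car9 led in every group, at 61.8 ± 0.35 CPM per kb in controls and 68.1 ± 0.95 with OSM, and made up 72.9% to 80.1% of the summed level of the 9 genes in each library. In controls Car13 (7.76 ± 1.37) and Car3 (7.64 ± 1.52) followed and did not differ beyond their spread. Car8 (2.96 ± 0.64), Car12 (1.92 ± 0.07), Car5b (0.632 ± 0.077) and Car2 (0.552 ± 0.12) came next, the last pair within its spread.

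The order of the 7 tested genes was the same with IL6 as in controls, and it changed with LIF and OSM. With OSM, Car12 reached 8.18 ± 0.33 CPM per kb, next to Car13 at 8.51 ± 0.04, and Car3 was at 5.05 ± 0.10. With LIF, Car12 came after Car13 at 4.31 ± 0.22, and Car3, at 1.57 ± 0.34, could not be told from Car8 at 1.48 ± 0.19. With IL6, Car3 kept its place after Car13 at 4.08 ± 0.24, above Car8 at 3.16 ± 0.25. The sum over the 9 genes was 83.0 to 83.6 CPM per kb in controls, 79.6 to 81.9 with IL6, 82.8 to 85.7 with LIF and 92.4 to 93.1 with OSM. Car3 took 7.85% to 10.5% of it in controls and 1.55% to 2.19% with LIF, while Car12 went from 2.26% to 2.36% in controls to 8.53% to 9.10% with OSM.

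**Figure D3:**
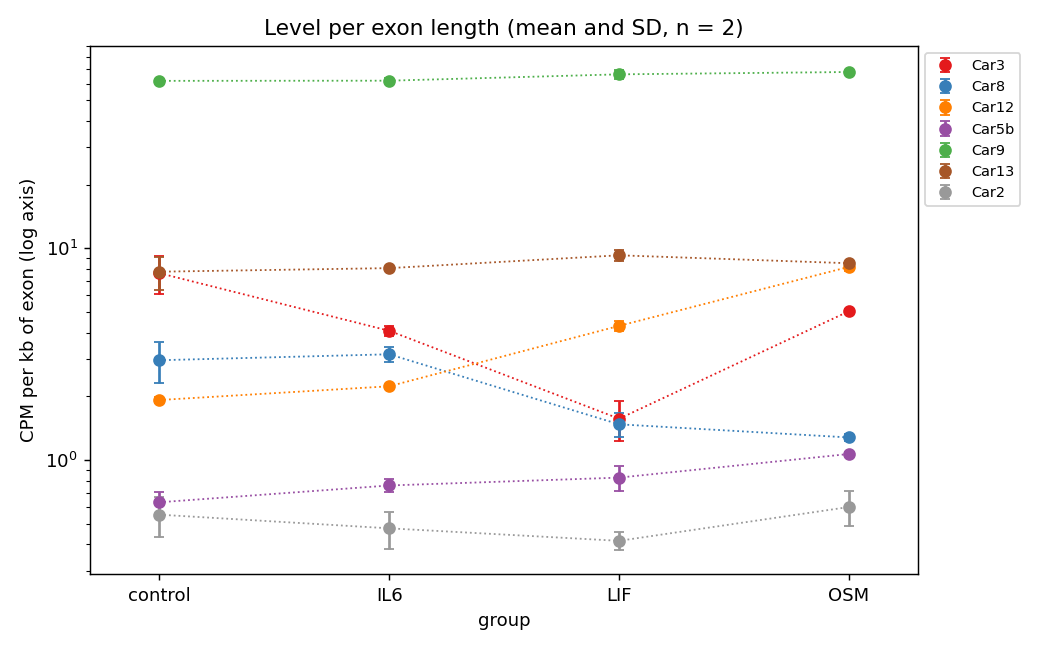
Mean level per kb of exon (log axis) of the 7 tested genes in each group, with SD over 2 libraries; dotted lines only join the points of one gene. Car9 stays on top near 62 to 68 CPM per kb, Car12 climbs to the level of Car13 with OSM, and Car3 drops to that of Car8 with LIF.

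Of the other family genes, Car11, which also lacks activity, measured 3.46 to 5.37 CPM, and the secreted enzyme Car6 measured 0.821 to 3.94. Car7 (0.637 to 1.64 CPM) and Car15 (0.236 to 0.671) were low. Car5a, the mitochondrial partner of Car5b, held 0 to 3 counts a library, and Car10 was at 0 throughout. About 65.7% of the Car15 exon bases overlap Gm20518 on the same strand, so its value is uncertain.

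Genes that move bicarbonate, protons, lactate or water across membranes and so work beside these enzymes moved in both directions. Of 21 tested, 4 rose and 5 fell with OSM, and 2 rose and 3 fell with LIF, with median log2 changes of 0.06 and -0.00, beside -0.00 and -0.01 over all tested genes. Over all tested genes 21.4% were called with OSM and 7.66% with LIF. Aqp1, a water channel gene, fell by 1.31 on the log2 scale with OSM (adjusted p 1.06e-06) and by 0.66 with LIF (adjusted p 0.00139). The sodium bicarbonate cotransporter gene Slc4a7 fell by 0.59 with OSM and 0.36 with LIF, and the exchanger gene Slc9a9 by 0.56 and 0.38. The lactate transporter gene Slc16a7 fell with OSM by 1.48 from about 1.19 CPM. Another lactate transporter gene, Slc16a1, rose with OSM (0.26, from a control mean of 279 CPM) and with LIF (0.35). The calls of Slc16a7 with OSM and of Slc4a7 and Slc9a9 with LIF were each lost without at least 1 library of that cytokine.

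Because Car9 is known as a hypoxia marker, 23 other hypoxia-induced genes were read beside it. With OSM, 6 rose and 0 fell, where 10.8% of all tested genes rose and 10.6% fell. With LIF 3 rose and 0 fell, where 4.2% rose and 3.46% fell. The list had medians of 0.01 and 0.03 that lay near the -0.00 and -0.01 of all genes. Ndrg1 rose by a log2 change of 0.82 with OSM and 0.51 with LIF. Pfkfb4 (0.50) and Slc2a1 (0.40) rose with OSM, and Pfkfb3 (0.37) and Ero1l (0.32) with LIF, but each of these 4 calls was lost on leaving out at least 1 library. Pfkfb3 was also called higher with OSM (0.29). Car9 itself gave no call.

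Car3 is a marker of slow fibres, so contractile genes were read too. Of 14 slow fibre genes, 1 rose and 4 fell with OSM, and 2 rose and 2 fell with LIF, with medians of -0.22 and -0.21, where 21.4% and 7.66% of all tested genes were called and their medians were -0.00 and -0.01. Slow myosin Myh7 fell by 0.68 with OSM and 0.62 with LIF, Tnni1 by 0.34 and 0.32, and Tnnc1 by 0.41 with OSM. Sln, which inhibits the calcium pump, rose by 1.16 with OSM and 1.02 with LIF. The slow troponin gene Tnnt1 also rose with LIF (0.22) and was not called with OSM (-0.09). With LIF the calls of Myh7, Tnni1 and Sln were each lost without at least 1 LIF library. Of 13 fast fibre genes, 1 rose and 5 fell with OSM, and 1 rose and 2 fell with LIF, with medians of -0.16 and -0.16, beside the same shares and medians of all genes. Tnnc2 (-0.36), Tnni2 (-0.36) and Mylpf (-0.31) fell with OSM, each losing its call without OSM replicate 1. Actn3 rose by 0.58 with LIF and 0.27 with OSM. With LIF, Tnnc2 (-0.38) and Myh2 (-3.58, adjusted p 0.0453, from a mean of 5.68 CPM) passed narrowly, both losing the call in several alternatives. No gene of these lists passed with IL6, where 0% of all tested genes did, so nothing is read from that.

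Markers of other cells also moved with the cytokines. Macrophage markers summed to 8.56 to 9.91 CPM in controls, 10.7 to 15.5 with IL6, 14.7 to 15.3 with LIF and 15.0 to 16.2 with OSM, although Ptprc and Adgre1 stayed under 0.1 CPM throughout. Csf1r held at most 7 counts a library and Lyz2 at most 5. Mrc1 made up most of this sum and rose with OSM (log2 0.68) and LIF (0.81), and Cd68 rose with OSM (1.03). Fibroblast markers summed to 1669 to 1732 CPM in controls, 1513 to 1715 with IL6, 1992 to 2055 with LIF and 2063 to 2171 with OSM, with Lum at 0. Most of that sum was Col3a1, which rose with OSM (log2 0.49) and LIF (0.37). Col1a1 went the other way, with means of 239 CPM in controls, 126 with IL6, 151 with LIF and 78.4 with OSM. It did not pass with any cytokine (edgeR adjusted p 0.0858 with OSM). Pdgfra rose with OSM (0.53), and Postn fell with OSM (-1.71) and LIF (-0.85). Myoblast markers summed to 301 to 336 CPM in controls, 300 to 318 with IL6, 324 to 331 with LIF and 357 to 366 with OSM. Of these 5 markers, 2 were called with OSM, Pax7 (log2 0.39) and Myf5 (0.82), both higher, and 0 with LIF. Over all tested genes 21.4% were called with OSM and 7.66% with LIF. The fibroblast sums were higher with LIF and OSM than in any control or IL6 library, whereas the macrophage sums with IL6 overlapped those with LIF and OSM. Car12 rose and Car8 fell with LIF and OSM, and the part of these cells in either change was not tested.

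The genes whose pattern was most like that of Car3 were sought among 10745 tested genes by Pearson's r of log2 CPM over the 8 libraries. The first 5 were Col8a1 (r = 0.977), Stard13 (0.973), Epha2 (0.972), Ablim3 (0.971) and Epn2 (0.966). These are a description without a p, the 8 points share their libraries with Car3, and the 5 are the top of a ranking. Their amplitude was smaller: Col8a1, a collagen chain gene, measured 98.8 ± 1.66 CPM in controls, 85.3 ± 5.89 with IL6, 61.9 ± 2.91 with LIF and 91.1 ± 1.13 with OSM (SD, n = 2). With LIF it was at 62.6% of its control mean, Epha2 at 62.6%, Ablim3 at 76.5%, Stard13 at 78.9% and Epn2 at 81.2%, against 20.5% for Car3.

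**Figure D4:**
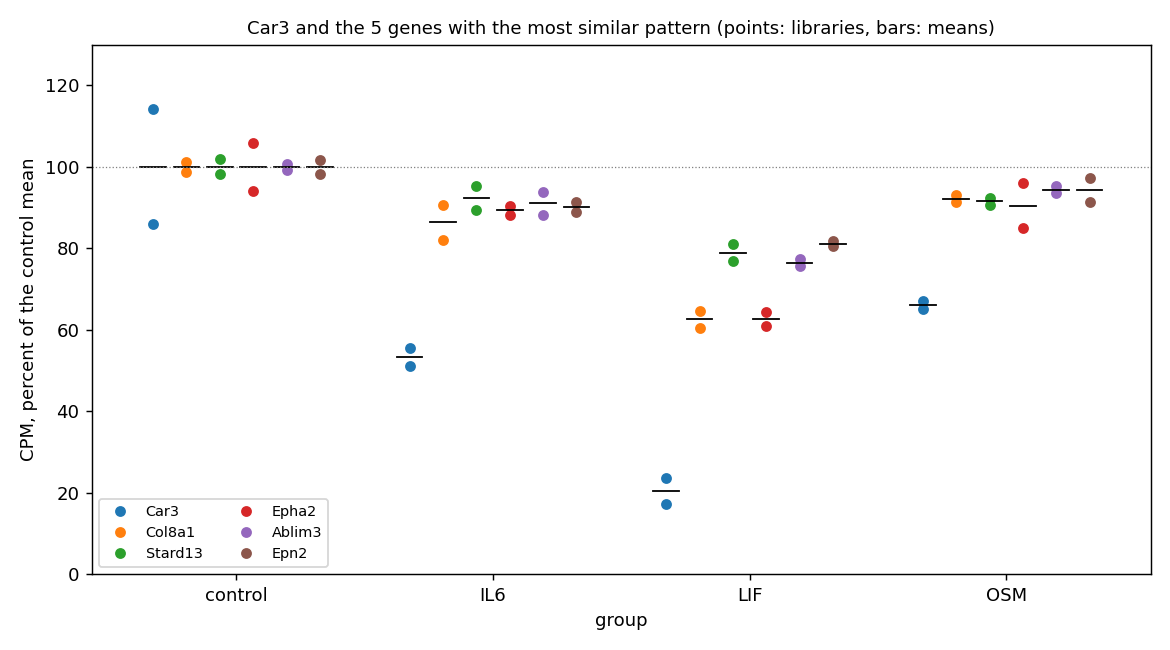
Level of Car3 and the 5 most similar genes as a percent of each gene's control mean (vertical axis from 0) in the 4 groups; points are libraries and short bars the means. All 6 genes are lowest with LIF, where Car3 is at 20.5% and the others lie between 62.6% and 81.2%.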

How the data were processed

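Poly(A) RNA of 8 myotube libraries was sequenced with a stranded kit, per the labels' protocols. The authors deposited raw read counts per gene, 1 table a library. Reads were trimmed with Trim Galore 0.6.5, aligned with STAR 2.7.3a and counted with HTSeq 0.11.1 on GRCm39, per the submitters' processing notes, which also name DESeq2 1.34.0, FastQC 0.11.9 and MultiQC 1.12; HTSeq's strand setting and the annotation release are not given in the sources used here. Summary lines, 11.7% to 12.7% of recorded alignments, were left out. Symbols and exon lengths came from GENCODE M21 (GRCm38) for 52093 identifiers; as the builds differ, no coordinates are given. Gene order came from RefSeq.

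Counts were fitted with edgeR 4.0.16 in R 4.3.3: filterByExpr at a minimum count of 10, TMM scaling, a robust quasi-likelihood model with 4 group means over 8 libraries (4 residual degrees of freedom), and Benjamini-Hochberg adjustment within each of 6 contrasts, called under 0.05. On counts simulated for OSM against control over 15364 genes, all 100 genes changed by a log2 of 1 and all 100 changed by 2 were recovered, with 16 false calls. The changed genes were drawn only from those averaging 100 counts or more, with the spread fitted here. The recovery thus does not extend to genes with fewer counts, such as Car2. Levels are TMM-scaled CPM, as mean ± SD. A log2 CPM with a prior count of 2 served the likeness ranking, over protein-coding genes averaging 100 counts or more. From each related list, up to 3 called genes per cytokine with the largest changes are named. Further calls are given where a gene rose beside falling ones or passed with both cytokines. Those further calls were not recomputed under the alternatives. Members, lists and tests were chosen with earlier results of these data known. Alternatives were other size factors, DESeq2 1.42.0, no or a stricter filter (mean of 50 counts), fits of 2 groups, a replicate block and leaving out each library. Limits from counts cover counting error only, since reads carry no molecular identifiers. Replicates of a group correlated at 0.992 to 0.995.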

Additional observations from a re-analysis of the deposited data

How the results depend on the processing

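Each of 42 member changes was recomputed under 14 alternatives, of which 8 left out 1 library each, except those of Car2, which had 13 because it falls below the stricter filter. Of the 11 called changes of genes other than Car3, 9 kept their call in all of them; the exceptions were Car5b in OSM against IL6 and Car8 in LIF against IL6. Genes called on leaving out a library ran from 1622 to 4067 for OSM against control (3335 with all libraries), 316 to 1688 for LIF against control (1195), 0 to 221 for IL6 against control (0), 437 to 1764 for OSM against LIF (1256), 1105 to 2713 for OSM against IL6 (2426) and 82 to 739 for LIF against IL6 (434). IL6 against control gave 17 calls with DESeq2 and 97 without the filter, each with 1 carbonic anhydrase, Car3, at -0.91 in both; leaving out a library gave 0 to 1 member and a Car3 change of -1.09 to -0.69. OSM against LIF gave 2928 calls in a fit of only 2 groups, and LIF against IL6 gave 985 without the filter. The Car3 change ran from -0.78 to -0.38 for OSM against control and from 1.48 to 1.93 for OSM against LIF on leaving out a library. The causes were not tested.

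The labels do not say that replicate numbers pair the libraries, and deviations of same-numbered libraries correlated at 0.0071 to 0.18. With a replicate block, IL6 against control gave 9 calls, 1 of them Car3 (-0.90, adjusted p 0.0358), and LIF against IL6 gave 826.

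Changes near 0 reversed. Car9 in IL6 against control was -0.000335 with DESeq2 and -0.000679 without the filter, and ran from -0.023 to 0.027 on leaving out a library. Likewise Car2 ran from -0.085 to 0.37 and Car13 from -0.038 to 0.33 with OSM, and Car2 from -0.43 to 0.028, Car8 from -0.11 to 0.33 and Car13 from -0.11 to 0.25 with IL6. Car9 ran from -0.012 to 0.088 in OSM against LIF, and Car2 from -0.38 to 0.022 and Car5b from -0.020 to 0.25 in LIF against IL6. With 2 libraries a group the spread is borrowed from all groups, and counting error limits Car2, Car4 and Car14 most.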

Other observations

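Car6, a secreted carbonic anhydrase best known from saliva, was chosen after its values were seen. It held 101 and 85 counts in the control libraries, 71 and 117 with IL6, 110 and 79 with LIF, and 24 and 53 with OSM. Its level was 1.30 ± 0.68 CPM with OSM against 3.16 ± 0.43 in controls (SD, n = 2), and it fell by 1.27 on the log2 scale (SE 0.35, edgeR adjusted p 0.0231). The LIF and IL6 means, 3.17 ± 0.74 and 3.15 ± 1.13 CPM, were close to the control mean. OSM was also lower than LIF (-1.28, adjusted p 0.0458) and IL6 (-1.27, adjusted p 0.0295). The OSM libraries differed from each other, and the difference from control did not pass without OSM replicate 1 (-0.82, adjusted p 0.207) or without control replicate 1 (-1.13, adjusted p 0.108).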
